A study of Homo sapiens with 2 samples.

Results

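The nucleolar and ribosome biogenesis factors are 55 genes whose proteins make ribosomal RNA, modify and cut it, or assemble it into ribosomal subunits. They are a fixed list of gene symbols, drawn up with earlier results of these data known. All 55 were found among the 13137 genes of the table. They were compared between 2 digital gene expression libraries of A549 cells, a human lung adenocarcinoma line of epithelial character. In this assay each captured mRNA gives 1 short tag, so the tag count of a gene does not grow with the length of its mRNA and levels of different genes can be set side by side. The library labelled shRNA-SOX2 came from cells that carried a lentiviral hairpin against SOX2, a transcription factor of stem cells, under the doxycycline-inducible H1TetO promoter. The shRNA-Con library came from A549 cells carrying a scrambled hairpin under the same promoter. Both cell populations were drug-selected pools that received doxycycline for 4 days, and 4 µg of total RNA was taken from each. The comparison asks which mRNAs differ between the pool with the hairpin against SOX2 and the pool with the scrambled hairpin. No library came from cells without doxycycline, and effects of hairpin, pool and library cannot be told apart.

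Ribosomes are built in the nucleolus. RNA polymerase I transcribes a long precursor RNA, small nucleolar ribonucleoproteins (snoRNPs) guide its methylation and pseudouridylation, and a succession of helicases, GTPases, nucleases and scaffold proteins folds and cuts it into the RNAs of the small and the large subunit. The demand for these factors rises with cell growth, and many of their genes are known targets of the transcription factor MYC.

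The shRNA-Con library held 2304184 tags assigned to genes and the library labelled shRNA-SOX2 held 2093816, which were 65.5% and 60.6% of all clean tags. If no tag was seen, a count of 0 allows a share of up to 0.00013% of the gene tags in the first and 0.000143% in the second. The fewest tags of any gene with tags was 2 in both libraries, so a count of 0 may hide tags seen once, and the limit may be too low. Each condition had 1 library, so no value below has a replicate error, and intervals and tests cover counting error only. The tests compare these libraries, not the conditions. The targeted gene did not follow its label: SOX2 counted 16 tags for shRNA-Con against 23 for the library labelled shRNA-SOX2, and the ratio of 1.58 had a 95% interval of 0.8 to 3.2 (Fisher's exact test, adjusted p = 0.333). Directions below are therefore given for the library labelled shRNA-SOX2. Where a pair of tag counts is given, shRNA-Con comes first. All 6 listed epithelial markers had tags, 22012 in sum for shRNA-Con against 22403 for the other library. These sums held opposite moves, since KRT7 (ratio 0.453) and KRT18 (0.841) were lower and KRT8 (1.82) and KRT19 (3.99) higher at the FDR of 0.001 given below. Of 4 genes known for high levels in A549 cells, the summed tags were 20279 and 27762, with a ratio of 2.23 for ALDH1A1, 1.63 for NQO1 and 0.835 for AKR1B10. The 3 markers of other cell types in the table (COL1A1, PECAM1 and PTPRC) had 49 and 45 tags in sum. The part of these marker differences, or of other cell types, in the results was not tested.

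The fold change lay below 1 for most of the ribosome biogenesis factors. Of the 55 members, 26 had lower and 4 had higher tag shares in the library labelled shRNA-SOX2 at a false discovery rate (FDR) of 0.001 in Fisher's exact test, and 25 did not pass. Among all genes tested, 12.2% were lower and 9.53% were higher by the same test. Because the list was drawn up with earlier results of these data known, this difference is no independent evidence of a direction. The 4 higher members were NCL, UTP3, NOP10 and EBNA1BP2. This test takes no account of variation between cultures: when edgeR's exact test was given a biological coefficient of variation of 0.2, an assumed value, DDX10 alone was lower and no member was higher, beside 0.365% and 0.495% of all genes. With an assumed coefficient of 0.1, 11 members were lower and none was higher, beside 4.98% and 3.9% of all genes.

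The median log2 fold change of the 54 members with at least 20 tags was -0.65, a ratio of 0.639, and the quartiles were -1.12 and -0.11. The median of the 10045 genes with at least 20 tags was -0.10, which is the shift of the whole table under this scaling. The members' median stood -0.54 from it on the log2 scale, a difference that no scaling can change because scaling shifts all genes alike. The log2 fold change was below 0 in 45 of the 54 members and above 0 in 9, and it was below 0 in 55.1% of all genes. At least 1.5-fold lower were 32 members and at least 1.5-fold higher were 2, NCL and UTP3, where 26.6% and 20.5% of all genes passed these sizes. At least 2-fold lower were 17 members, beside 13% of all genes. Genes with many tags are called more readily, and 50 members had at least 100 tags. Of these 50 members, 25 were lower and 4 higher, beside 22.5% and 16.6% of all genes with that many tags.

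In bulk RNA, fewer cells of a kind and less RNA per cell cannot be told apart. All members together held 22193 gene tags of shRNA-Con (0.963% of its gene tags), against 17578 (0.84%) for the library labelled shRNA-SOX2. NPM1 and NCL supplied a large part of these sums. Without this pair, the sums were 12999 tags (0.564%) and 8270 tags (0.395%), a log2 ratio of -0.51 in place of -0.20. The study shows NLE1, DDX10 and RRP9 in a figure of cancer genes that it picked from these libraries, so they are not independent evidence of a direction. Without them, 24 of 52 members were lower and the median log2 fold change was -0.60. The Gene Ontology term nucleolus is attached to 50 of the 55 members (90.9%), against 5.81% of the 10616 genes of the table with any cellular component term. This share describes the list, whose genes were chosen for such roles, and is no result of the libraries.

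**Figure D1:**
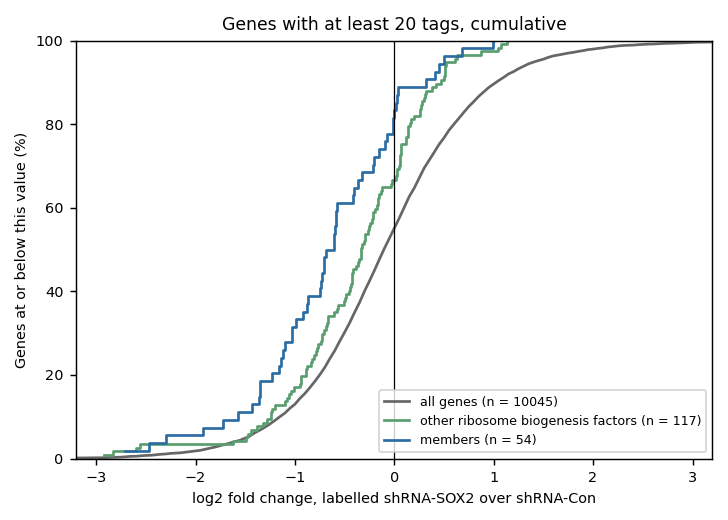
Cumulative share of genes (vertical axis, in percent) at or below each log2 fold change (horizontal axis, the library labelled shRNA-SOX2 relative to shRNA-Con), for the 54 members, 117 other ribosome biogenesis factors and all 10045 genes with at least 20 tags. The members' curve lies to the left of that of all genes over most of its length and reaches 50% near its median of -0.65, where all genes have a median of -0.10.

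The 6 members that act in the transcription of ribosomal DNA all had ratios below 1. Of these genes of RNA polymerase I and its factors, 5 were lower and none was higher, with a median log2 fold change of -1.08. Beside this and the counts by role below stand 12.2% lower and 9.53% higher of all genes. Among genes with at least 100 tags the shares were 22.5% and 16.6%. The uniform direction held for the members only. Of the 9 RNA polymerase I genes in the wider list below, 4 had log2 fold changes below 0 and 5 above, with a median of 0.02. POLR1C, a subunit that RNA polymerases I and III share, fell from 119 to 22 tags, and its log2 fold change was -2.30 (ratio 0.203, 95% interval 0.123 to 0.323). POLR1D, the shared subunit that pairs with POLR1C, had 416 and 283 tags, a ratio of 0.749 (0.641 to 0.873), so the intervals of these partners did not overlap. Such comparisons of partners, here and below, were chosen after the values were seen. Their intervals cover counting error only, and how often other gene pairs fail to overlap was not computed. For scale, the log2 fold changes of all genes with at least 20 tags had quartiles of -0.62 and 0.44. POLR1D also lost its call when TMM or median-ratio factors replaced gene tags.

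Of the large catalytic subunits, POLR1B fell from 98 to 35 tags, a log2 fold change of -1.35 (ratio 0.393, 0.259 to 0.584). POLR1A had 60 and 25 tags and did not pass the FDR of 0.001 (ratio 0.459, 0.275 to 0.742, Fisher's exact test, adjusted p = 0.0029). TCOF1, the nucleolar scaffold treacle, fell from 213 to 95 tags, and UBTF, which binds the ribosomal DNA promoter, fell from 162 to 90. Their log2 fold changes were -1.03 and -0.71, the second of which lost its call under TMM and median-ratio scaling.

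The box C/D snoRNPs carry out the methylation of ribosomal RNA, and the ratios of their genes between these libraries differed. Fibrillarin (FBL), the methyltransferase, fell from 610 to 218 tags, a log2 fold change of -1.35 (ratio 0.393, 0.335 to 0.46). NOP56, one of the core proteins that hold the guide RNA, fell from 678 to 338 tags (ratio 0.549, 0.48 to 0.626). Its partner NOP58 counted 182 tags for shRNA-Con against 234, a ratio of 1.41 (1.16 to 1.73) that did not pass the FDR of 0.001 (Fisher's exact test, adjusted p = 0.00202) but did under TMM and median-ratio scaling. The intervals of FBL, NOP56 and NOP58, which leave out variation between cultures, did not overlap. RRP9, a protein of the U3 snoRNP needed for cutting the precursor, fell from 36 to 5 tags. Its log2 fold change of -2.71 was the lowest of all members, and with so few tags the ratio of 0.153 had an interval of 0.0468 to 0.391.

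The box H/ACA snoRNPs make pseudouridine, and their core proteins are also part of telomerase. DKC1 (dyskerin), the pseudouridine synthase, fell from 814 to 454 tags and NHP2 fell from 844 to 505, with log2 fold changes of -0.70 and -0.60. GAR1, which is needed for release of the modified RNA, fell further, from 102 to 28 tags (ratio 0.302, 0.191 to 0.463). NOP10, a small protein of the core, rose from 563 to 699 tags, a log2 fold change of 0.45 (ratio 1.37, 1.22 to 1.53). Its interval did not meet those of the other core proteins. NOLC1, a phosphoprotein that chaperones snoRNPs, had 548 and 449 tags and did not pass the test (ratio 0.902, 0.794 to 1.02).

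**Figure D2:**
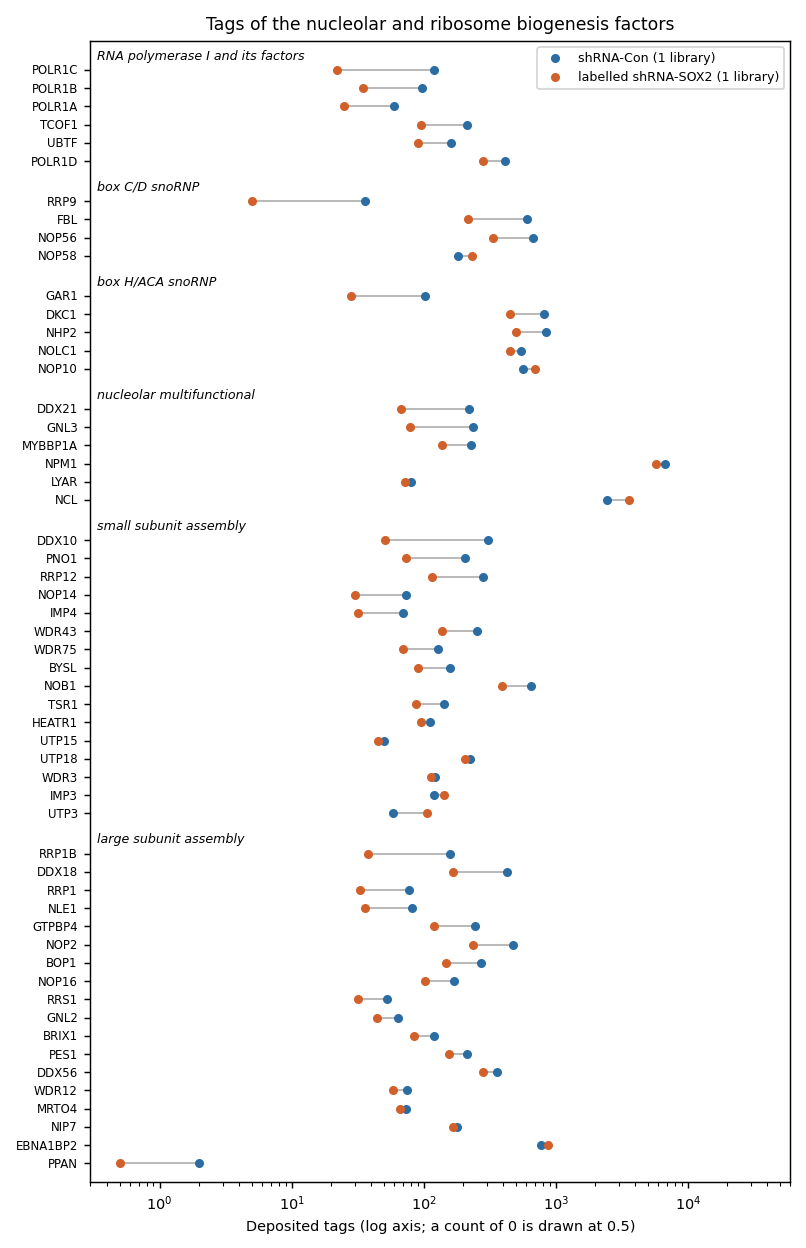
Deposited tags of each of the 55 members (horizontal log axis) in the shRNA-Con library and the library labelled shRNA-SOX2, grouped by role, with a line joining the 2 libraries of a gene. NPM1 and NCL have the most tags, PPAN the fewest with 2 and 0 tags (the 0 drawn at 0.5), and in NOP58, NOP10, NCL, IMP3, UTP3 and EBNA1BP2 the count of the library labelled shRNA-SOX2 is the larger one.

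The abundant nucleolar proteins differed from one another. NPM1 (nucleophosmin), a histone and ribosome chaperone, had the most tags of all members, 6725 and 5723, with a ratio of 0.937 (0.904 to 0.97) that did not pass the FDR of 0.001 (Fisher's exact test, adjusted p = 0.00119) but did with clean-tag scaling. NPM1 has many processed pseudogenes, so the assignment of its tags is uncertain. NCL (nucleolin), which binds nascent ribosomal RNA, rose from 2469 to 3585 tags, a log2 fold change of 0.68 (ratio 1.6, 1.52 to 1.68). The gene body of NCL also hosts small nucleolar RNAs in its introns, which a poly(A) tag does not count.

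The RNA helicase DDX21 and the GTPase GNL3 (nucleostemin) were among the members with the larger decreases. DDX21 fell from 220 to 67 tags, a log2 fold change of -1.58 (ratio 0.335, 0.251 to 0.442). GNL3 fell from 235 to 79 tags, a log2 fold change of -1.43 (ratio 0.37, 0.283 to 0.479). MYBBP1A, a nucleolar MYB-binding protein, fell from 228 to 139 tags, a call lost under TMM and median-ratio scaling. LYAR, a nucleolar zinc finger protein, had 80 and 72 tags, close to the ratio of the library totals. Of these 6 nucleolar proteins, 3 were lower and 1 was higher.

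Of the 16 factors of small subunit assembly, 6 were lower, 1 was higher and 9 did not pass, with a median log2 fold change of -0.64. DDX10, an RNA helicase of the early precursor particle, fell from 310 to 51 tags, a log2 fold change of -2.47 (ratio 0.181, 0.132 to 0.244, Fisher's exact test, adjusted p = 1.74e-39). It was the member whose call also held with an assumed coefficient of variation of 0.2 (edgeR's exact test, adjusted p = 6.28e-05). PNO1, a late factor that works beside NOB1, fell from 206 to 73 tags, a log2 fold change of -1.36. NOB1, the endonuclease that cuts the mature end of the small subunit RNA, fell from 651 to 391 tags, a log2 fold change of -0.60. The ratio was 0.39 (0.294 to 0.512) for PNO1 and 0.661 (0.582 to 0.75) for NOB1, and these intervals did not overlap.

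RRP12, needed for export of the particle, fell from 283 to 115 tags (log2 fold change -1.16). NOP14 fell from 73 to 30 tags (log2 fold change -1.14, a call lost under TMM and median-ratio scaling), and WDR43 fell from 256 to 139 (-0.74). Their products belong to the small subunit processome, the large particle that forms on the precursor. In the same direction but not past the FDR were IMP4 with 70 and 32 tags, WDR75 with 128 and 70, BYSL with 159 and 90, and TSR1 with 144 and 87, with ratios between 0.503 and 0.665. IMP3, which works with IMP4, had 119 and 144 tags, a ratio of 1.33 (1.04 to 1.71) that did not pass.

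UTP3 (SAS10) was the small subunit factor that rose, from 25.6 to 51.1 tags per 1000000 gene tags. Its ratio of 2 (1.44 to 2.79) was the highest of all members. HEATR1, UTP15, UTP18 and WDR3, scaffold proteins of the processome, had 111 and 96, 50 and 45, 225 and 207, and 121 and 113 tags. Their log2 fold changes lay between -0.07 and 0.04. The direction of HEATR1 turned under TMM scaling, that of UTP15 under TMM and median-ratio scaling, and those of UTP18 and WDR3 under clean-tag scaling.

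Of the 18 factors of large subunit assembly, 6 were lower, 1 was higher and 11 did not pass, and the 17 with at least 20 tags had a median log2 fold change of -0.59. RRP1B, a nucleolar protein of the RRP1 family, fell from 159 to 38 tags, a log2 fold change of -1.93 (ratio 0.263, 0.18 to 0.377). Its paralog RRP1 fell from 78 to 33 (log2 fold change -1.10), a call lost under TMM and median-ratio scaling. The helicase DDX18 fell from 432 to 167 tags, a log2 fold change of -1.23 (ratio 0.425, 0.354 to 0.51). GTPBP4, a GTPase of the nucleolar precursor, fell from 247 to 119 (-0.92), and NOP2, a methyltransferase of the large subunit RNA, fell from 478 to 237 (-0.87).

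BOP1, PES1 and WDR12 form a stable trimer needed for large subunit RNA processing. BOP1 fell from 272 to 148 tags, a ratio of 0.599 (0.487 to 0.734). PES1 had 213 and 155 tags, a ratio of 0.801 (0.647 to 0.99), and WDR12 had 75 and 59, a ratio of 0.866 (0.605 to 1.23), neither of which passed. The intervals of these 3 partners overlapped.

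NLE1, a WD-repeat protein that joins the large subunit precursor, counted 81 and 36 tags, and its log2 fold change was -1.03 (ratio 0.489, 0.321 to 0.733). It narrowly missed the FDR of 0.001 (Fisher's exact test, adjusted p = 0.00124). Also not past it were NOP16 with 171 and 102 tags, RRS1 with 53 and 32, GNL2 with 64 and 44, BRIX1 with 119 and 84, and DDX56 with 361 and 283, with ratios between 0.656 and 0.863. MRTO4 with 73 and 66 tags and NIP7 with 179 and 166 had log2 fold changes of -0.01 and 0.03, and the sign of each turned under another scaling. EBNA1BP2, a scaffold of the nucleolar precursor, rose from 769 to 874 tags, a ratio of 1.25 (1.13 to 1.38). Its call was lost with clean-tag scaling. PPAN counted 2 tags for shRNA-Con against 0, too few for a fold.

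**Figure D3:**
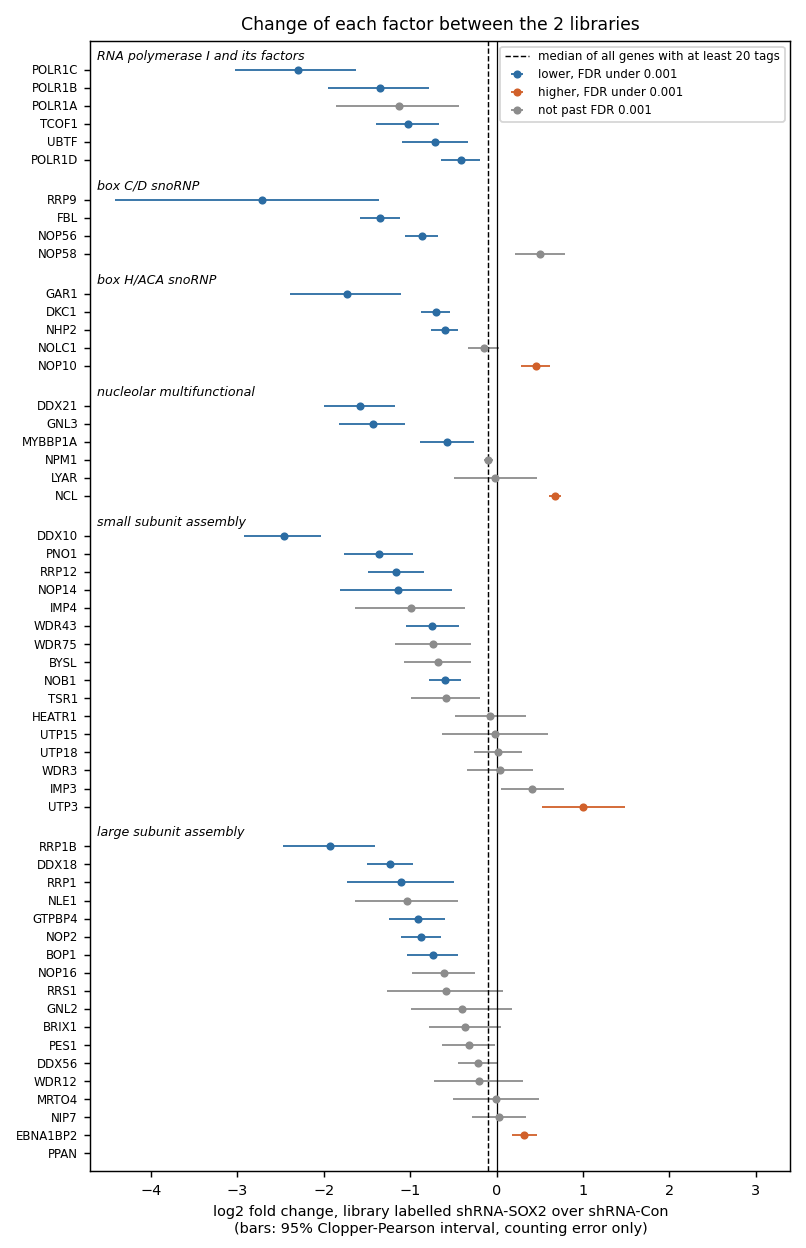
log2 fold change (horizontal axis, the library labelled shRNA-SOX2 relative to shRNA-Con) for each member, grouped by role and ordered within it, with 95% Clopper-Pearson intervals for counting error. Blue points are the 26 members lower and orange points the 4 members higher at an FDR of 0.001, grey points did not pass, the dashed line is the median of all genes (-0.10), and PPAN has no fold.

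Across the 54 members, Spearman's rho between tags and log2 fold change was 0.26, and across the 10045 genes it was -0.03. These are descriptions across genes of the same pair of libraries, where few tags also widen the spread of the fold changes. Of the members with the most tags, NPM1, NCL and EBNA1BP2, the last 2 rose at the FDR of 0.001, and NPM1 had a ratio of 0.937 that did not pass it. EBNA1BP2 lost its call with clean tags, and neither rise was called with an assumed coefficient of variation of 0.1. The members next in tags of both libraries went both ways. NHP2 (1349 tags, ratio 0.658), DKC1 (1268, 0.614), NOB1 (1042, 0.661) and NOP56 (1016, 0.549) were lower, and NOP10 (1262, 1.37) was higher.

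A wider list of ribosome biogenesis factors that are not members held calls in both directions. Of 123 such genes, 120 were in the table, 28 were lower and 5 were higher, against the same 12.2% and 9.53% of all genes. Most of the list, 96 of the 120, had at least 100 tags, and 22.5% of all genes with that many tags were lower and 16.6% higher. Beside the shares at that depth, the lower calls of the list were close and its higher calls fewer. The median log2 fold change of this list was -0.33, between the members' median of -0.65 and the -0.10 of all genes. With an assumed coefficient of variation of 0.2, edgeR's exact test called none of them in either direction. The difference between the lists was not tested.

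Within this list, factors of large subunit assembly had 15 lower and 1 higher of 46 and a median of -0.50. The snoRNP assembly factors had 5 lower and none higher of 9 (median -0.68), and the small subunit factors had 6 lower and 2 higher of 42 (median -0.26). The remaining RNA polymerase I genes had 1 lower and 1 higher of 9 (median 0.02). The exosome, which trims the precursor from its end, had 1 lower and 1 higher of 14 with its processing factors (median 0.10). Beside these counts, 12.2% of all genes were lower and 9.53% higher, and 22.5% and 16.6% of genes with at least 100 tags. At least 100 tags were counted for 39 of the 42 small subunit factors.

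Among genes with more than 3 tags in both libraries, the 5 largest decreases past the FDR were in DDX31, EFL1, NUFIP1, PDCD11 and NOC3L. DDX31, a nucleolar helicase, fell from 39 to 5 tags, and EFL1, the GTPase that releases a late factor from the large subunit, fell from 26 to 4. NUFIP1, a snoRNP assembly factor, fell from 62 to 20. PDCD11, an early scaffold, fell from 52 to 17, and NOC3L, a nucleolar factor of the large subunit, fell from 93 to 31. The log2 fold changes of these genes ran from -2.83 to -1.45. The 5 that rose were EXOSC4, an exosome ring protein (218 to 417 tags), NGDN (123 to 231), the helicase DDX52 (80 to 133), the RNA polymerase I initiation factor RRN3 (298 to 386) and the helicase DDX54 (234 to 302). The ratio of NGDN was 2.07 (1.65 to 2.59).

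MYC, a transcription factor that drives many of these genes in growing cells and is no member, fell from 542 tags to 125. Its log2 fold change was -1.98 (ratio 0.254, 0.207 to 0.309, Fisher's exact test, adjusted p = 1.12e-52). The part of MYC in the members' values was not tested.

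The promoters of the members were read for the letters of factors named above. In the RefSeq sequences (GRCh38.p14), 47 of the 55 members had an entry, and the 250 bases before the gene start were searched. The palindrome CACGTG, the E-box that MYC binds, stood in 4 of the 47 members (8.51%), in 8.89% of 10533 genes of the table and in 6.49% of all 27305 promoters. None of the 21 members that were lower and had an entry held it in this window. The members with it were IMP4, UTP18, EBNA1BP2 and NOP10, and NOP10 had 2 copies. Their stretches, 5′ to 3′ on the gene's strand with CACGTG in capitals, are shown because they are the sites found.
IMP4 (chr2:130342664-130342729, plus strand): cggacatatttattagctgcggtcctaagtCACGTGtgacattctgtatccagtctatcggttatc
UTP18 (chr17:51260427-51260492, plus strand): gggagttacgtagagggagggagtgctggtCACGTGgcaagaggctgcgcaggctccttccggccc
EBNA1BP2 (chr1:43172772-43172820, minus strand): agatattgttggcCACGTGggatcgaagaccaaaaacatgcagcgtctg
NOP10 (chr15:34343137-34343177, minus strand): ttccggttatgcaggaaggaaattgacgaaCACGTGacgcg

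The first base of the motif lay 203 bases before the gene start in IMP4, 89 in UTP18, 237 in EBNA1BP2 and 11 in the printed copy of NOP10. EBNA1BP2 and NOP10 were among the 4 members that rose, and IMP4 and UTP18 did not pass the test. The letters AACAAAG or their reverse complement CTTTGTT, a form of the SOX motif, stood in none of the 47 members, in 2.87% of the genes of the table and in 4.54% of all promoters. A match of letters is no binding site, and their absence from this window says nothing of sites elsewhere.

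**Figure D4:**
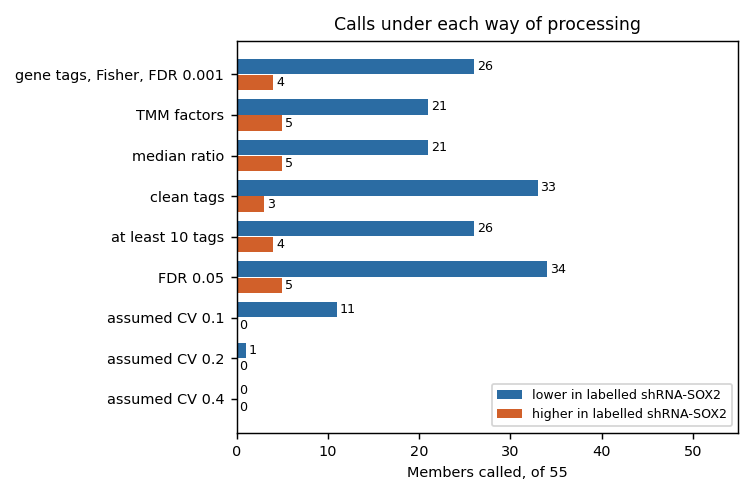
Number of the 55 members called lower and higher in the library labelled shRNA-SOX2 (horizontal axis) under each way of processing (vertical axis), with assumed CV standing for the biological coefficient of variation given to edgeR's exact test. Scaling moves the lower calls between 21 and 33, and an assumed coefficient of 0.1, 0.2 or 0.4 leaves 11, 1 and 0.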

How the data were processed

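The authors isolated mRNA with oligo(dT) and had it sequenced as digital gene expression tags at BGI. They deposited raw tag counts per Entrez gene for both libraries, with no normalization. The aligner is not given in the sources used here, and hg19 is the build named by the submitters' processing notes. Of the columns headed SC and S1, SC carries the initials of shRNA-Con and was taken for it, which leaves S1 for shRNA-SOX2. The deposited TPM, which the authors scaled to clean tags, served only to recover the number of clean tags in each library. The authors' log2 ratio, p-value and FDR columns were not used.

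Counts were divided by total gene tags, and log2 fold changes have shRNA-Con as the denominator, with counts below 3 set to 3 and no fold where both were at or below 3. Each gene was tested against the remaining gene tags by Fisher's exact test (two-sided), and p-values were adjusted over 13137 genes after Benjamini and Hochberg, at the study's FDR of 0.001. Ratios have 95% Clopper-Pearson intervals, which cover counting error only. Medians use genes with at least 20 tags. Alternatives were TMM, median-ratio and clean-tag scaling, a minimum of 10 tags, 0.5 added to each count, an FDR of 0.05, a 2-fold size, and edgeR's exact test with an assumed coefficient of variation of 0.1, 0.2 or 0.4. The Fisher step was tested on simulated counts with counting error only, which cannot check it against variation between cultures. Recovery was judged on genes with at least 100 tags, after a first criterion had failed for genes with few tags.

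The members and lists were chosen with earlier results of these data known. Every member is named. Fuller values are given for members past the FDR, the 3 with the most tags and NLE1, DDX10 and RRP9, and among other factors for the 5 largest decreases and increases past the FDR among genes above 3 tags in each library. Comparisons of partners within a complex and the sums without NCL and NPM1 were chosen after the values were seen. RRP7A, NOP53 and EXOSC8 of the other factors, and the markers AKR1C1, CD3E, COL3A1 and DES, were not found among the genes of the table. Promoters were RefSeq's (GRCh38.p14). For 42 of the 47 members, the bases after the start were found in a GENCODE transcript. Tests ran in scipy 1.17.1 (Python 3.11.15). TMM factors came from edgeR 4.0.16 and median-ratio size factors from DESeq2 1.42.0, under R 4.3.3.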

Additional observations from a re-analysis of the deposited data

How the results depend on the processing

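No paired analysis was possible because only 1 library represents a condition, which also means that none could be left out. With an assumed coefficient of variation of 0.1, 0.2 or 0.4 in edgeR's exact test, the members called lower went from 26 to 11, 1 and 0 and those called higher from 4 to 0, 0 and 0. Among all 13137 genes, lower calls numbered 654, 48 and 0 and higher calls 512, 65 and 0. The other factors went from 28 lower to 10, 0 and 0, and from 5 higher to 2, 0 and 0. At an FDR of 0.05 they had 45 lower and 11 higher calls, beside 2754 and 2148 of the 13137 genes. With clean tags the other factors had 3 higher calls, beside 1008 of all genes. At 2-fold, 17 members were lower and 0 higher, beside 13% of all genes lower. Of all genes with at least 20 tags, 89.6% lay at or below a log2 fold change of 1. With clean tags, 1 member was at least 1.5-fold higher, and the share of all genes at this size was not computed for that scaling. The log2 ratio of the members' summed tags was -0.51 without NCL and NPM1, an alternative chosen after seeing the data, as was leaving out NLE1, DDX10 and RRP9.

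TMM and median-ratio factors left 21 members lower and 5 higher: MYBBP1A, NOP14, POLR1D, RRP1 and UBTF lost their calls and NOP58 gained one. Over all genes, TMM called 1381 lower and 1414 higher, and the median ratio 1385 and 1401. Clean tags gave 33 members lower and 3 higher, beside 2010 and 1008 of all genes. This scaling added the calls of BYSL, IMP4, NLE1, NOP16, NPM1, POLR1A and WDR75 and lost that of EBNA1BP2. The members' median log2 fold change ranged from -0.76 (clean tags) to -0.57 (TMM) and that of the other factors from -0.45 to -0.26. Over the whole table, 56.1% of calls were lower with gene tags, 66.6% with clean tags, 49.4% with TMM, 49.7% with the median ratio and 42.5% with an assumed coefficient of 0.2. The sign turned with TMM for HEATR1 (0.0016), LYAR (0.0590), UTP15 (0.0590) and MRTO4 (0.0656), with the median ratio for LYAR (0.0566), UTP15 (0.0566) and MRTO4 (0.0632), and with clean tags for NIP7 (-0.0839), UTP18 (-0.0955) and WDR3 (-0.0738). The assumed coefficients were not estimated from these libraries.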
